A study of Mus musculus with 8 samples.

Results

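Accessible chromatin was examined peak by peak at Zfpm2 and Cnksr3, which the study names as genes regulated by Chd7. It describes both as targets of Chd7 together with the topoisomerase Top2b, from cultured postmitotic granule neurons. For Zfpm2 it also saw less protein after Top2b was targeted in the cerebellum. For Cnksr3 it also reported less Top2b bound at the promoter in Chd7 mutant neurons of that culture. The peaks below come from progenitors, an earlier stage, and do not measure regulation in those neurons. Every peak that overlapped either gene body (GENCODE annotation, mm10) or the 50 kb on each side of it was taken, without a filter on strength. This gave 161 of the 434365 peaks in the 3 deposited lists, 56 of 152984 in wild type (WT), 65 of 174407 in mutant and 40 of 106974 in heterozygous (het) cells. The assay was ATAC-seq, in which the Tn5 transposase cuts and tags open DNA, on granule neuron progenitors (GNPs) from the cerebella of C56Bl6/J mice, as the labels spell the strain, at postnatal day 7. The study names the background of its mice as C57BL/6N instead. The labels give the genotypes as Chd7 wild type (3 libraries), Chd7 mutant (3 libraries) and Chd7 het (2 libraries). The study describes its WT animals as Chd7 f/f, its mutants as Atoh1-Cre::Chd7 f/f and its heterozygotes as Atoh1-Cre::Chd7 f/+, so the floxed allele was shared by all groups and Cre was carried by mutant and het only. Atoh1-Cre acts in the granule cell lineage and not in Purkinje cells, and the study states that some Chd7 protein was left in the posterior lobe of its mutants. The sex of the pups was not separated, and the study calls the WT and mutant replicates technical. Each list was called on the pooled libraries of its group, so the values below come without an error over replicates, and differences between genotypes were not tested.

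Chd7 is an ATP-dependent chromatin remodeller that moves nucleosomes, often at enhancers. Zfpm2, also called FOG2, is a multi-zinc-finger protein that acts through other proteins, attaching to GATA factors and nuclear receptors of the COUP-TF family and bringing in corepressors such as CtBP and the NuRD complex. It is best known from heart, gonad and diaphragm development. Cnksr3 is a member of the CNK family of scaffold proteins, which organise signalling from Ras to ERK, and it is known in kidney epithelium as an aldosterone-induced regulator of the epithelial sodium channel. A start site and the distal regions around a gene can each be open or closed, and an ATAC-seq peak marks where tags of open DNA pile up above the local background.

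Zfpm2 (ENSMUSG00000022306.9) lies on the plus strand at chr15:40655035-41104592, is 449.558 kb long and has 8 exons in its principal transcript. Its window held 3 other annotated genes, Gm49525, Gm49526 and Gm49524, all of the annotation class TEC and without a known role. The nearest protein-coding neighbours lay 505.025 kb (9330182O14Rik) and 342.89 kb (Oxr1) away. Cnksr3 (ENSMUSG00000015202.13) lies on the minus strand at chr10:7119063-7212237, is 93.175 kb long, has 13 exons and was the sole gene in its window. Its neighbours were Ipcef1, 66.585 kb away, and Ulbp1, 228.125 kb away. The link of a distal peak to either gene was by position alone.

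Some chosen regions of both windows were read from the GRCm38 reference on the plus strand, with every CANNTG in capitals. The shared Zfpm2 peak with the largest fall is not printed. CANNTG is the E-box, the core recognised by basic helix-loop-helix factors such as Atoh1 and Neurod1 of the granule lineage. The first line is the shared Zfpm2 peak with the largest rise in mutant.
Zfpm2 largest rise, chr15:41082662-41082950: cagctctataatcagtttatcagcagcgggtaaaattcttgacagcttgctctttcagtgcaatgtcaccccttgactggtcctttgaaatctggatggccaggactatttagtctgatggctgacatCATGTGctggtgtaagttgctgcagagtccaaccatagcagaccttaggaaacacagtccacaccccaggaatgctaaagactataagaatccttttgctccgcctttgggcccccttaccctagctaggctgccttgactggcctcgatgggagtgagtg

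The next 3 are Zfpm2 peaks found in a single homozygous list: in WT inside intron 1, in WT inside the coding part of exon 8, and in mutant across the start of exon 6.
Zfpm2 WT intron 1, chr15:40656859-40657015: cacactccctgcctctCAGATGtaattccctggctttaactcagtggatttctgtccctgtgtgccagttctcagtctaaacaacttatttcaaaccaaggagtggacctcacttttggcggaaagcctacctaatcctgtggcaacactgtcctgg
Zfpm2 WT exon 8, chr15:41101319-41101424: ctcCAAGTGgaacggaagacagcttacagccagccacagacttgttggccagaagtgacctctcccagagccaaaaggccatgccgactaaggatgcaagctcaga
Zfpm2 mutant exon 6, chr15:41095913-41096183: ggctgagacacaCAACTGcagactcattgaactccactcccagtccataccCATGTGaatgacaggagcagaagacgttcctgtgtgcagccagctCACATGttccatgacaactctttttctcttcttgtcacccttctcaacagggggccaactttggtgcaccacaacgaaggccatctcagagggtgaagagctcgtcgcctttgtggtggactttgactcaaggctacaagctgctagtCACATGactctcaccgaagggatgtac

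For Cnksr3 the lines give the part of the strongest WT peak within 100 bases of its summit, downstream of the gene, the WT peak beside it that had no mutant peak, the strongest mutant peak without a WT peak, and the 250 bases upstream of the start site on the minus strand (RefSeq promoter table, GRCm38.p6), which lie under the start site peak.
Cnksr3 strongest peak, summit part, chr10:7077620-7077820: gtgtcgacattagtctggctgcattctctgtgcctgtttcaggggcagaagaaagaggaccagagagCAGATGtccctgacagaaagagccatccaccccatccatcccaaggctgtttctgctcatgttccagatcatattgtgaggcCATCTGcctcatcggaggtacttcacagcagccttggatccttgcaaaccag
Cnksr3 WT downstream, chr10:7077070-7077197: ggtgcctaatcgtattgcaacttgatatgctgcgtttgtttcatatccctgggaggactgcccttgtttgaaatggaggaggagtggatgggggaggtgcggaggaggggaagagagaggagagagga
Cnksr3 mutant intron 7, chr10:7138152-7138251: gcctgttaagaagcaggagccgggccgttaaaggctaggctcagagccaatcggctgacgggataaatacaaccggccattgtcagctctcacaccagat
Cnksr3 promoter, chr10:7212238-7212487: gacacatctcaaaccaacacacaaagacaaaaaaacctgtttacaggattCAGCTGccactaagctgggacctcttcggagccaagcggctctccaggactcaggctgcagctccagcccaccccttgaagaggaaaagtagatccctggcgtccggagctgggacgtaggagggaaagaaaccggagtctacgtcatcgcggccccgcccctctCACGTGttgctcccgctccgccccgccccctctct

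The Zfpm2 peak with the largest rise held 1 E-box. Neither the WT peak downstream of Cnksr3 nor the mutant peak in intron 7 held any. The Cnksr3 promoter held 2 and had a GC content of 59.2%. In the 100 bases on each side of the summit, 30 of 39 Zfpm2 WT peaks (76.9%) and 13 of 17 Cnksr3 WT peaks (76.5%) held an E-box, beside 76.1% of the 152982 WT peaks with a complete window. Certain forms of the E-box were counted too. The form CAGCTG was in 17.9% and 17.6% of the windows of Zfpm2 and Cnksr3, with 23.6% of all windows. The form CATATG was in 7.69% and 11.8%, with 5.88% of all. The GATA motif AGATAA, searched on both strands as were the others, was in 4 of 39 Zfpm2 windows and 0 of 17 Cnksr3 windows, with 6.66% of all. The AP-1 motif TGANTCA was in 2 windows of each gene, with 6.24% of all. The NFI core TTGGCA was in 9 Zfpm2 and 3 Cnksr3 windows, with 21.8% of all. The median GC content of the windows was 47.3% at Zfpm2, 52.2% at Cnksr3 and 51.7% in the whole WT list. These matches describe letters and do not show that a factor was bound.

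The lists rest on 50394313 tags in WT, 51030229 in mutant and 30923002 in het after the duplicate filter of the peak caller. Tag size was 107 bp in WT and het and 76 bp in mutant, and het tags were aligned and extended by other settings, to 200 bp with a shift of -100 bp, against 90 bp in WT and 88 bp in mutant without a shift. The study describes the het settings for its ATAC-seq as a whole, which the headers of the WT and mutant lists do not match. WT and mutant are therefore compared by peak height, and het only by presence of a peak. The het pileups and -log10 q given below are raw values under these other settings. They do not rank het against WT or mutant. A peak within 1 kb of a start site was present in all 3 lists for 8 of 8 GNP markers, Atoh1 and Pax6 among them. The same held in WT for 11 of 16 markers of other cerebellar cells, in mutant for 11 and in het for 9, while Pcp2 of Purkinje cells, Sox10 of oligodendrocytes and Aif1 and Cx3cr1 of microglia were among those with none in any list. Others were present in every list, among them Calb1 and Car8 of Purkinje cells, with within-list ranks (100 for the strongest peak of a list) of 89.1 and 92.9 in WT, 90.1 and 93.4 in mutant and 92.8 and 90.5 in het, and Mbp of oligodendrocytes. Csf1r of microglia had a peak in WT and mutant. The part of these cells in the results was not tested. The Chd7 locus held 41, 49 and 30 peaks in WT, mutant and het within the same flanks. Where the deletion lies in Chd7 is not given in the sources used here, and it was not looked for.

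The start site of Zfpm2 was open in all 3 genotypes. The WT peak at chr15:40654410-40656321 was 1912 bp wide, covered the first exon and reached a pileup of 73 tags at its summit with a -log10 q of 35.8. In mutant the same place held a peak at chr15:40654403-40656054 with a pileup of 78 and a -log10 q of 39.2, and a short second peak at chr15:40656196-40656297 with a pileup of 27 under the end of the broader WT peak. Het had 1 peak of 1893 bp there with a pileup of 125 and a -log10 q of 64.9, by its own calling settings. Scaled to the tags of each list, the mutant height was 1.06 times that of WT, with an exact 95% interval of 0.757 to 1.47. That interval covers the counting of tags alone and spans a ratio of 1. The same holds of every interval of a single height ratio below. Tags of 1 library pool are not replicates, and PCR copies are not independent molecules.

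The start site of Cnksr3 was likewise open in all 3 genotypes. Its WT peak at chr10:7211192-7212612 had a pileup of 73 and a -log10 q of 37.8, the mutant peak at chr10:7211072-7212653 had 77 and 40.3, and the het peak had 110 and 56.1. The ratio of mutant to WT was 1.04, with an interval of 0.746 to 1.45. The start site peaks of Zfpm2 and Cnksr3 thus had the same WT height, and by -log10 q neither start site was the strongest peak of its window in WT.

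**Figure D1:**
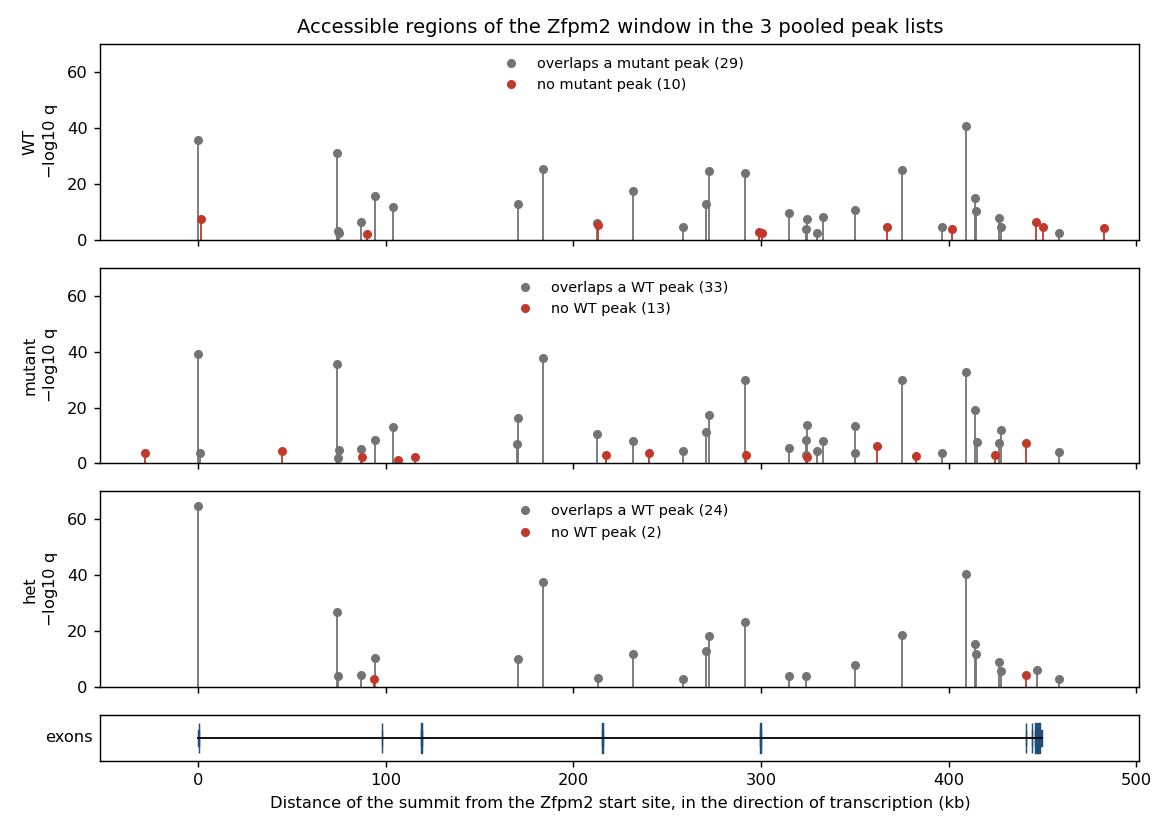
Peaks of the Zfpm2 window in the WT, mutant and het lists, placed by the distance of their summit from the start site (kb) and with their -log10 q as height. Red marks peaks without an overlapping peak in the other homozygous list (10 of 39 in WT and 13 of 46 in mutant) or, in het, without a WT peak (2 of 26). A WT peak was present for 92.3% of het peaks in this window, beside 86.7% over the whole het list. The tall peaks recur in all 3 lists and the red ones are all low; the bottom row draws the exons, taller where coding.

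Zfpm2 held 39 WT peaks, 34 of them in introns, 3 downstream, 1 in an exon and 1 at the start site. Intron 5 alone spans most of the 3′ part of the gene and carried the strongest WT peak, at chr15:41064124-41064452 and 409.309 kb from the start site. It had a pileup of 54 and a -log10 q of 40.7 in WT, against 45 and 32.6 in mutant and 61 and 40.5 in het. The ratio of mutant to WT was 0.823 (0.541 to 1.25). Next after the start site came chr15:40728852-40729189 in intron 1, 74.068 kb into the gene, with a pileup of 39 in WT, 43 in mutant and 41 in het. Its summit lay at the same base in WT and mutant. The peak at chr15:40838810-40839217 in intron 3 had 34 tags in WT, 45 in mutant and 50 in het, and the one at chr15:41029813-41030093 in intron 5 had 32, 38 and 30. These 5 strongest WT peaks were thus present in every list. In mutant 4 of them were higher than in WT, beside 57.6% of all shared peaks of any strength. The counting interval of each spanned a ratio of 1.

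Peaks present in a single homozygous list were counted next, where "lost" means a WT peak without an overlapping mutant peak and nothing more. Of the 39 WT peaks, 10 had no overlapping mutant peak, 25.6% (Wilson 95% CI 14.6 to 41.1%), beside 22.8% over the whole WT list. Of 46 mutant peaks, 13 lacked a WT partner, 28.3% (17.3 to 42.5%), beside 30.7% over the whole mutant list. The intervals cover counting error over peaks and both hold the value of the whole list. Lost peaks were low, at a median -log10 q of 4.43 against 10.4 for the 29 shared ones, and the 13 mutant peaks with no partner had a median of 2.97. Over the whole lists the same medians were 3.34, 9.21 and 3.81, so this is not particular to Zfpm2. Of the lost peaks 3 had a -log10 q of 5 or more, which is 3 of the 24 WT peaks of that strength, 12.5% (4.34 to 31.0%), beside 5.78% of all. In mutant it was 2 of 26, 7.69% (2.14 to 24.1%), beside 11.2% of all. Of these lost and unpartnered peaks 1 of 10 in WT and 2 of 13 in mutant lay within 300 bp of a peak of the other list.

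The strongest of the lost Zfpm2 peaks, at chr15:40656859-40657015, sits in intron 1, 1.895 kb past the start site. It had a pileup of 34 and a -log10 q of 7.48 in WT, and no peak was called there in mutant or het. The edge of the nearest mutant peak was 562 bp away. The next, at chr15:41101319-41101424, lies in coding exon 8, the last and longest coding exon, with a pileup of 14 and a -log10 q of 6.27. The nearest mutant peak was 5136 bp away, whereas het had a wider peak there with a pileup of 17 and a -log10 q of 6.19. The last, at chr15:40868358-40868560 in intron 3, had a pileup of 12 and a -log10 q of 5.29, and it overlapped a het peak of pileup 12. A mutant peak ended 209 bp before it.

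Both mutant peaks of that strength without a WT partner lay in the 3′ part of the gene. The one at chr15:41095913-41096183 runs from the end of intron 5 into coding exon 6 and had a pileup of 15 and a -log10 q of 7.15. Het held a peak over the same place with a pileup of 15 and a -log10 q of 4.44, and the nearest WT peak was 5136 bp away. The other, at chr15:41016581-41016849 in intron 5, had a pileup of 13 and a -log10 q of 6.28 with no het peak. The remaining 11 mutant peaks without a WT partner had pileups of 8 to 12, near the lowest pileup of 7 in the mutant list.

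Height was then compared for the 29 shared Zfpm2 peaks, where a fall or rise is the sign of an untested ratio. In mutant 13 were lower and 16 higher after scaling to the tags of each list, beside 42.4% lower and 57.6% higher over all shared peaks, and the median log2 ratio of mutant to WT was 0.12 (95% interval of the median -0.14 to 0.34), beside 0.08 over the 118098 shared peaks of the series. Past a fold of 1.5 there was 1 lower peak, 3.45%, beside 3.61% of all shared peaks, and 1 higher peak, beside 8.37% of all. The largest fall was at chr15:40886415-40886972 in intron 4, 231.523 kb from the start site, with 24 tags in WT, 15 in mutant and 21 in het. Its -log10 q was 17.5 in WT, 8.18 in mutant and 11.8 in het, and its log2 ratio was -0.70 (-1.73 to 0.29). The summits lay 147 bp apart in WT and mutant. The other 4 largest falls among peaks of -log10 q 5 or more were 23 tags to 16 at chr15:40749436-40749677 in intron 1, 17 to 12 at chr15:40969822-40970031 and 22 to 18 at chr15:41069684-41070087 in intron 5, and 37 to 29 at chr15:40927377-40927602 in intron 4. Their log2 ratios ran from -0.54 to -0.31, and the falls were spread over 3 introns.

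The rises were of like size. By the same rule the 5 largest were at chr15:40979324-40979472 in intron 5 (16 tags in WT and 23 in mutant), chr15:40867761-40867962 in intron 3 (13 and 18), chr15:40838810-40839217 in intron 3 (34 and 45), chr15:40824742-40825437 in intron 3 (21 and 27) and chr15:41029813-41030093 in intron 5 (32 and 38). Their log2 ratios ran from 0.23 to 0.51. The single peak past 1.5-fold, at chr15:41082662-41082950 in intron 5, was below the strength limit in WT, with a -log10 q of 4.68, and is named because of its value. It had 14 tags in WT and 24 in mutant, a log2 ratio of 0.76 (-0.25 to 1.82), and summits 1 bp apart. Het held a peak there of 18 tags by its own calling settings. All 29 intervals spanned a log2 ratio of 0.

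Strength was also expressed as the rank of a peak within its own list. The lists differ in length, and shared peaks as a whole moved up. The 29 shared Zfpm2 peaks changed rank by a median of 2.55 points from WT to mutant (interval -3.87 to 6.67), beside 2.28 over all shared peaks, and the changes ran from -21.0 at the intron 4 peak to 32.8 at the intron 5 peak described last. Rank went up for 18 peaks and down for 11, beside 61.9% up and 38.1% down over all shared peaks. Both ends of the range were thus the peaks that also had the most extreme height ratios.

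**Figure D2:**
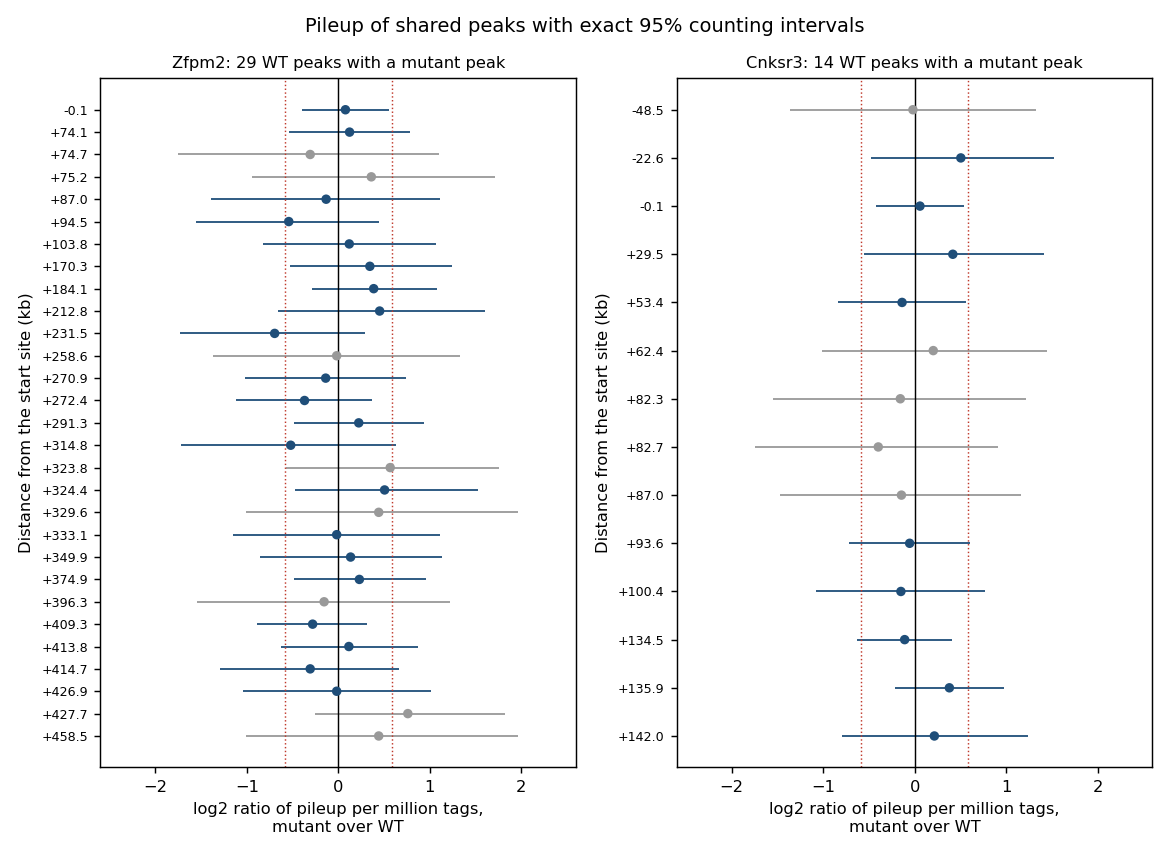
Log2 ratio of pileup scaled to tags, mutant over WT, for the 29 Zfpm2 and 14 Cnksr3 WT peaks with a mutant peak, ordered by distance from the start site (kb). Bars are exact 95% counting intervals, blue marks WT peaks of -log10 q 5 or more and grey weaker ones, and dotted lines mark a fold of 1.5; every bar crosses 0.

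**Figure D3:**
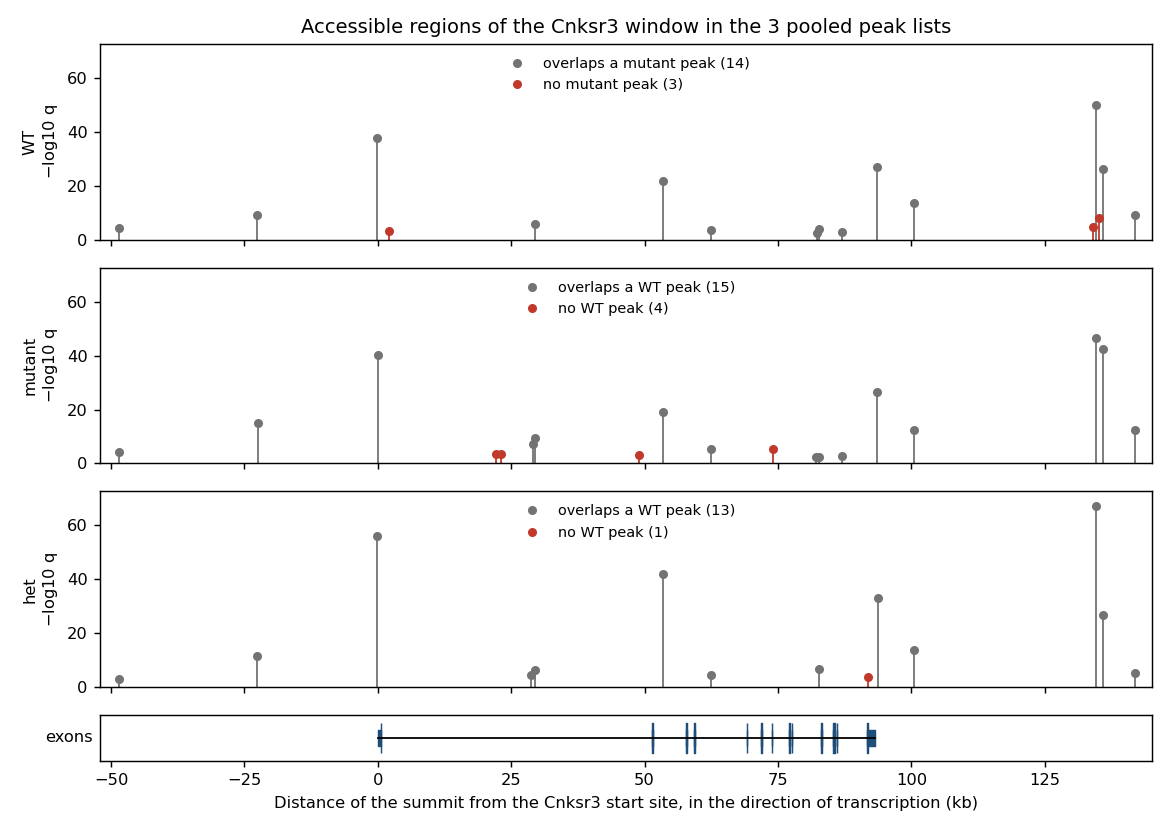
Peaks of the Cnksr3 window in the WT, mutant and het lists, drawn as for Zfpm2 with distance in the direction of transcription (kb). The tallest WT peak stands 134.517 kb from the start site, downstream of the gene, and red marks the 3 of 17 WT and 4 of 19 mutant peaks without a partner and the 1 of 14 het peaks without a WT peak. A WT peak was present for 92.9% of het peaks in this window, beside 86.7% over the whole het list.

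Cnksr3 held 17 WT peaks: 7 in introns, 7 downstream, 2 upstream and 1 at the start site. The strongest lay outside the gene, at chr10:7077449-7077835 and 41.343 kb past its end. It reached 66 tags and a -log10 q of 49.8 in WT, 62 and 46.6 in mutant and 90 and 67.2 in het, and its summit moved by 3 bp between WT and mutant. A second strong peak stood beside it at chr10:7076287-7076461, with 44 tags in WT, 58 in mutant and 52 in het, and a log2 ratio of 0.38 (-0.21 to 0.98). The other 2 of the 5 strongest, after the start site, were chr10:7118313-7118850, just 0.464 kb past the end of the gene, with 41 tags in WT, 40 in mutant and 55 in het, and chr10:7158640-7159276 in intron 2, with 38, 35 and 64. All 5 were present in every list. Ipcef1, the nearest other protein-coding gene, lay beyond the edge of the window on the side of the downstream group, 66.585 kb from Cnksr3. The strongest peak, 41.343 kb past the end of Cnksr3, and the one beside it were thus nearer to Ipcef1. The downstream group is not tied to Cnksr3 by these data.

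Without a mutant partner were 3 of the 17 WT peaks, 17.6% (6.19 to 41.0%), and without a WT partner 4 of the 19 mutant peaks, 21.1% (8.51 to 43.3%), again beside 22.8% and 30.7% of all. Of 10 WT peaks of -log10 q 5 or more 1 was lost, beside 5.78% of all WT peaks of that strength. This lost peak, at chr10:7077070-7077197, had 23 tags and a -log10 q of 8.0. It flanked the strongest peak, and the nearest mutant peak was 253 bp away. A weaker WT peak on the other flank, 294 bp from the same mutant peak, also had no partner. In WT 3 separate peaks were thus called over this stretch, and in mutant and het 1. Of 12 mutant peaks of that strength 1 had no WT peak, beside 11.2% of all. This one, at chr10:7138152-7138251 in intron 7, had 13 tags, a -log10 q of 5.24 and no het peak. The broad WT peak at chr10:7182668-7183638 in intron 1 shows the reverse, since its 971 bp were called as 2 peaks in mutant and in het.

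The 14 shared Cnksr3 peaks had 8 lower and 6 higher values in mutant, and 0 passed a fold of 1.5 in either direction, beside 42.4% lower, 57.6% higher and 3.61% and 8.37% past that fold over all shared peaks. Their median log2 ratio was -0.04 (-0.15 to 0.38), and the sign of so small a median turned with the setting, to 0.06 among WT peaks of -log10 q 5 or more and 0.01 by fold enrichment. At that strength just 4 peaks were lower, from -0.15 at chr10:7111670-7111927 (23 tags in WT, 21 in mutant) to -0.05 at chr10:7118313-7118850. The largest rises were 16 tags to 23 at chr10:7234736-7234901, 22.595 kb upstream of the start site, with a log2 ratio of 0.51 (-0.48 to 1.52), and 17 to 23 at the broad peak of intron 1. A smaller rise, of 17 tags to 20, was seen at chr10:7070203-7070371, at the far downstream edge. The median rank change was -0.52 points (-5.81 to 14.0), beside 2.28 over all shared peaks. Rank rose for 6 peaks and fell for 8, beside 61.9% up and 38.1% down over all shared peaks. All 14 intervals of single peaks spanned 0.

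Het was compared by the presence of peaks. A het peak overlapped 24 of 39 Zfpm2 WT peaks, 61.5% (45.9 to 75.1%), and 12 of 17 Cnksr3 WT peaks, 70.6% (46.9 to 86.7%), beside 63.1% of all WT peaks. For mutant peaks it was 27 of 46, 58.7% (44.3 to 71.7%), and 13 of 19, 68.4% (46.0 to 84.6%), beside 58.7% of all. Of the WT peaks lost in mutant, het held 2 of 10 at Zfpm2 and 0 of 3 at Cnksr3, beside 13.2% of all such peaks. Of mutant peaks that lacked a WT partner, het held 1 of 13 and 0 of 4, beside 15.2%. The genotype of the het list and its shorter depth and other calling settings cannot be told apart here.

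Joined across lists where they lay within 300 bp, the peaks gave 46 regions at Zfpm2 and 20 at Cnksr3, of 190582 in all. Regions seen in all 3 lists numbered 21 at Zfpm2 and 12 at Cnksr3, beside 45.7% of the whole series. WT and mutant shared 5 and 2 that het lacked, beside 12.7%. In WT alone were 8 regions at Zfpm2 and 1 at Cnksr3, beside 13.3%, and in mutant alone 10 and 4, beside 20.1%. Zfpm2 had 1 region in WT and het, beside 1.66%, and 1 in mutant and het, beside 3.03%. Cnksr3 had 1 in het alone, beside 3.52%, which lies in the last exon.

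To place both genes among others, the same counts were made for 2472 protein-coding genes of 100 kb or more with their flanks. The median share of lost peaks was 18.8% in these genes, and 1796 of them (72.7%) had a lower share than Zfpm2. For Cnksr3, which is shorter than that limit, 1122 (45.4%) had a lower share. The median log2 ratio was below that of Zfpm2 in 62.9% of the genes and below that of Cnksr3 in 11.4%. Small peak numbers widen these shares, since the genes held from 1 to 464 WT peaks. Likeness was taken over 3 standardised values: the share of lost peaks, the share of mutant peaks without a WT partner and the median log2 ratio. By these the genes most like Zfpm2 were Kalrn, Xxylt1 and AU040320, at distances of 0.114, 0.140 and 0.186. Kalrn, a guanine nucleotide exchange factor of neurons, had lost 15 of 56 WT peaks. Most like Cnksr3 were Rorb, Garnl3 and Car10, at 0.0488, 0.0855 and 0.153, and Rorb, an orphan nuclear receptor, had 4 of 22. Lost shares near those of Zfpm2 and Cnksr3 follow from the way these genes were chosen.

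**Figure D4:**
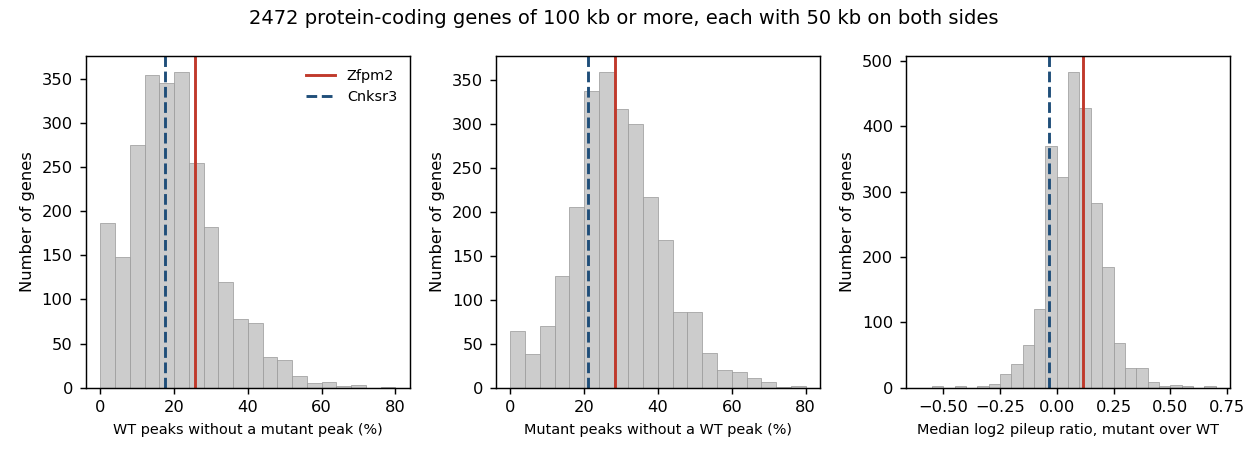
Histograms over 2472 protein-coding genes of 100 kb or more, each with 50 kb on both sides, of the share of WT peaks that were lost (%), the share of mutant peaks that had no WT partner (%) and the median log2 pileup ratio of shared peaks. The solid line is Zfpm2 (25.6%, 28.3% and 0.12) and the dashed line is Cnksr3 (17.6%, 21.1% and -0.04); Cnksr3 lies in the lower part of the third histogram, and neither line is at an edge of the histograms.

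The genes that work with each protein were counted in the same way. Around Zfpm2 these were the other FOG gene Zfpm1, the GATA factors, the COUP-TF genes Nr2f1 and Nr2f2, and the CtBP and NuRD corepressors, all 18 of which were found. Together 31 of their 234 WT peaks had no mutant peak (13.2%), 58 of 262 mutant peaks lacked a WT partner (22.1%), and 83 shared peaks were lower and 120 higher. The shares over the whole lists were 22.8% and 30.7%, and 42.4% of all shared peaks were lower. The largest shares lost were at Gata3, 7 of 14 peaks, and Gata6, 2 of 5, and there was no loss at Hdac1, Ctbp1, Gata2, Nr2f2, Mta1, Gata1 and Rbbp7. Zfpm1 itself lost 5 of 24. Around Cnksr3 the 16 genes were its relatives Cnksr1 and Cnksr2, kinases of the cascade below Ras with the scaffolds Ksr1 and Ksr2, and the sodium channel subunits with their regulators Sgk1, Nedd4l and Tsc22d3. They lost 32 of 226 WT peaks (14.2%), held 67 mutant peaks of 262 without a WT peak (25.6%), and had 92 shared peaks lower and 102 higher, beside the same shares of 22.8%, 30.7% and 42.4%. The gamma subunit Scnn1g lost 4 of 8, Cnksr1 lost 2 of 9 and Cnksr2 1 of 7, while Sgk1, the aldosterone-induced kinase, kept all 19, and Braf also lost none.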

How the data were processed

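The WT, mutant and het libraries were analysed from 3 narrow-peak lists, each deposited as 1 list of the pooled libraries of its group. Per the labels and the study's methods, the authors trimmed reads with Trim Galore 0.4.1, removed duplicates with Picard 1.139 and called peaks with MACS2 2.1.0.20150731 on mm10. The file headers place WT and mutant alignments in a folder named for STAR and het alignments in one named for bowtie, with a q cutoff of 0.05. The values the authors deposited per peak are the pileup (signal, in tags, not scaled to depth), the fold enrichment (ratio over local background) and the -log10 q. Tag size, extension and shift differed between the lists as reported above, which can move peak edges and heights.

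Overlap was at least 1 bp. Where several mutant peaks overlapped a WT peak, the strongest was its partner. Pileup was divided by the tags left after filtering. Shares have Wilson intervals, medians order-statistic intervals and single ratios exact Clopper-Pearson intervals, all at 95% and for counting error only. Genes were from GENCODE M21, and no peak passed a chromosome end of GRCm38 on 21 chromosomes. Named peaks were those within 1 kb of a start site, the 5 strongest WT peaks, the unshared WT and mutant peaks of -log10 q 5 or more, and the 5 largest falls and 5 largest rises among shared WT peaks of that strength. Of the pathway lists, the genes with the largest and smallest shares lost were named. The 3 genes most like each were taken by Euclidean distance. The genes and lists were chosen with earlier results of these data known. The overlap code was tested on simulated lists. Python 3.11.15, pandas 2.3.3, scipy 1.17.1 and pysam were used. The alternatives tried are given at the end. Some genes and sequences are not reported here.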

Additional observations from a re-analysis of the deposited data

How the results depend on the processing

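Of 86 alternative settings for 12 results, 69 stayed within the interval of the main value and 17 moved beyond it. The whole-list shares given earlier belong to the main setting and cannot be set beside the shares below. For the restriction on the counted peaks alone, the whole-list shares without a partner were 5.78% in WT and 11.2% in mutant. For the other settings no whole-list share is given, so whether a shift is particular to these genes cannot be told. With 50% reciprocal overlap, 51.3% of Zfpm2 WT peaks and 58.7% of mutant peaks had no partner, and 37.0% of mutant peaks had a het peak. With all lists restricted to a -log10 q of 5 or more, the Zfpm2 shares without a partner were 12.5% in WT and 15.4% in mutant, and 90% of Cnksr3 WT peaks had a het peak. With the restriction on the counted peaks alone, the shares without a partner were 12.5% and 7.69% at Zfpm2 and 8.33% for mutant at Cnksr3, and the shares with a het peak were 79.2% and 84.6% at Zfpm2 and 90% and 91.7% at Cnksr3 (WT and mutant). With each list cut to the length of the shortest, the Zfpm2 share of mutant peaks without a WT peak was 12% and the shares of mutant peaks with a het peak were 84.0% at Zfpm2 and 91.7% at Cnksr3. With peaks within 300 bp counted as shared, 5.88% of Cnksr3 WT peaks lacked a mutant peak. The restriction and the shorter lists remove weak peaks by construction. By definition, a 50% overlap can only raise the shares without a partner and lower those with a het peak. Likewise the 300 bp allowance can only lower the shares without a partner. The size of the shifts was not tested. Some medians near 0 changed sign within their interval, the Zfpm2 log2 ratio to -0.02 with reciprocal overlap and the Cnksr3 log2 ratio to 0.07 with 100 kb on each side. Centred on all shared peaks the medians were 0.04 and -0.11. No paired analysis was possible because each list pools the libraries of its group, which also kept single replicates from being left out.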
